A study of Mus musculus with 6 samples.

Results

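The dual-specificity MAP kinase phosphatases Dusp1, Dusp2, Dusp4, Dusp5, Dusp6, Dusp7, Dusp8, Dusp10 and Dusp16 were followed in mouse bone marrow-derived macrophages given conditioned medium. They were taken by their gene symbols from the deposited count table, which held a single row for each of the 9, of 55335 genes in all. The 3 PAC-CM-KD samples are macrophages given 400 µM kinsenoside (KD), a plant glycoside, along with PAC-CM, the medium that injured acinar cells of the pancreas had conditioned. The 3 PAC-CM samples got this medium without kinsenoside. The macrophages of both groups were primary cells kept in medium with 20 ng/mL macrophage colony-stimulating factor, and conditioned medium was added on day 5. The labels give neither the strain, sex or age of the mice nor the length of the exposure, and no sample without conditioned medium was analysed here, so only the addition of kinsenoside can be read. Whether the 3 replicates of a group were separate cultures or mice is not stated. The p-values therefore reflect how far these libraries scatter, and that scatter may be technical.

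MAP kinases, the ERK, JNK and p38 enzymes, are switched on by phosphorylation of a threonine and a tyrosine in their activation loop, and dual-specificity phosphatases switch them off by removing both phosphates. The family falls into inducible enzymes of the nucleus (Dusp1, Dusp2, Dusp4 and Dusp5), cytoplasmic enzymes that prefer ERK (Dusp6 and Dusp7), and enzymes that prefer JNK and p38 (Dusp8, Dusp10 and Dusp16). Many of these genes are themselves transcribed in response to MAP kinase signalling and so form a negative feedback. In macrophages Dusp1 is best known as a brake on p38 and JNK and thereby on inflammatory cytokine production.

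None of the 9 genes passed the test between PAC-CM-KD and PAC-CM macrophages. All 9 met the filter on low counts. By edgeR's quasi-likelihood test, 0 had a Benjamini-Hochberg adjusted p under 0.05, against 0.511% of all 13901 tested genes (0.209% higher and 0.302% lower). Without PAC-CM-KD replicate 1, which stood apart from the other libraries, the count was again 0. DESeq2 and limma-voom also called 0 of the 9, where they called 3.15% and 0.281% of the genes they tested. At an unadjusted p under 0.05, edgeR, DESeq2 and limma-voom each had 1 of the 9, Dusp8 by edgeR, where edgeR had 14.9% of all tested genes. Log2 fold changes, given throughout as PAC-CM-KD over PAC-CM, lay above 0 for 4 of the 9 and below 0 for 5, with a median of -0.16, against -0.01 over all tested genes. Groups did not overlap in CPM (the standard depth-scaled unit, each count over the sum of its library) for Dusp2 alone among the 9, and over all tested genes for 22.5%. The 95% intervals of the log2 fold change were narrowest for Dusp1 and Dusp6 and widest for Dusp8 and Dusp16.

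**Figure D1:**
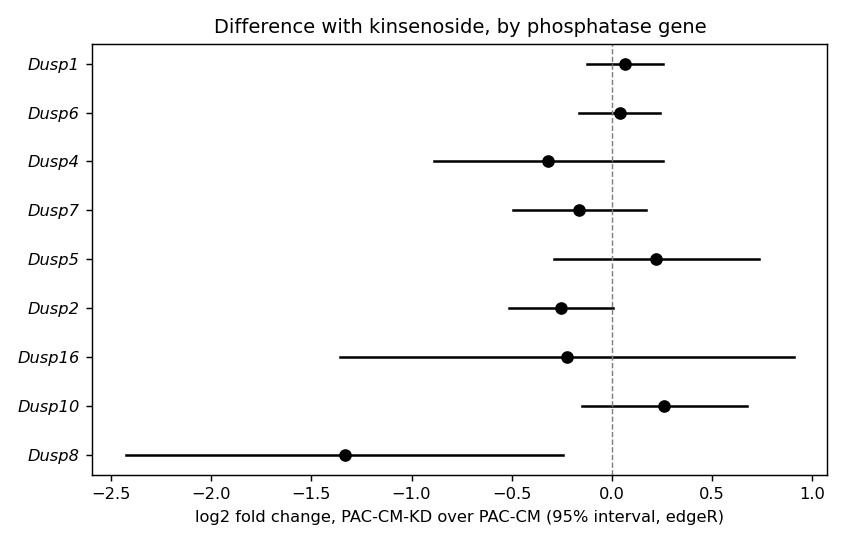
Log2 fold change of each phosphatase gene, PAC-CM-KD over PAC-CM, with the 95% interval from edgeR, in order of the level per length from top to bottom (n = 3 samples a group). The intervals of 8 genes span 0. That of Dusp8, from -2.43 to -0.24, does not, but its adjusted p is 0.247.

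In TPM, which are counts per exon length brought to the same sum in every library, the phosphatase pool was mostly Dusp1 and Dusp6. Over all 6 libraries Dusp1 averaged 163 ± 11.98 TPM (SD, n = 6), which is above 94.2% of the tested genes. Dusp6 followed at 80.3 ± 6.03 TPM, and Dusp1 stood above Dusp6 in 6 of 6 libraries. Dusp4 and Dusp7 came next at 35.3 ± 8.84 and 33.0 ± 5.50 TPM. Their ranges overlapped and Dusp4 was the higher in 4 of 6 libraries, so their order was within the spread. Dusp5 averaged 16.5 ± 3.80 TPM and lay below Dusp7 and above Dusp2 in 6 of 6 libraries, although its lowest library (13.0 TPM) was close to the highest of Dusp2 (12.9 TPM). Dusp2 at 10.5 ± 1.52, Dusp16 at 8.35 ± 2.60 and Dusp10 at 6.999 ± 1.37 TPM overlapped each with its neighbour in this order. Dusp8 was barely transcribed, at 0.364 ± 0.243 TPM, above 6.33% of the tested genes. With the longest annotated transcript as the length, Dusp1 averaged 191 TPM and Dusp6 73.6 TPM.

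Summed over the 9 genes, the pool held 383, 341 and 307 TPM in PAC-CM-KD replicates 1 to 3, against 348, 376 and 370 TPM in the PAC-CM replicates. The groups overlapped, since PAC-CM-KD replicate 1 was the highest of the 6 libraries and PAC-CM-KD replicate 3 the lowest. The inducible nuclear genes made up 63.7 ± 2.14% of the pool in PAC-CM-KD macrophages and 63.4 ± 1.38% in PAC-CM macrophages (SD, n = 3 per group). The ERK-selective cytoplasmic genes made up 31.9 ± 1.33% in PAC-CM-KD and 32.1 ± 1.77% in PAC-CM macrophages. The JNK- and p38-selective genes were a small remainder of 4.38 ± 1.41% in PAC-CM-KD and 4.49 ± 0.473% in PAC-CM macrophages. The make-up of the pool thus differed between the groups by less than 1 SD in each class.

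**Figure D2:**
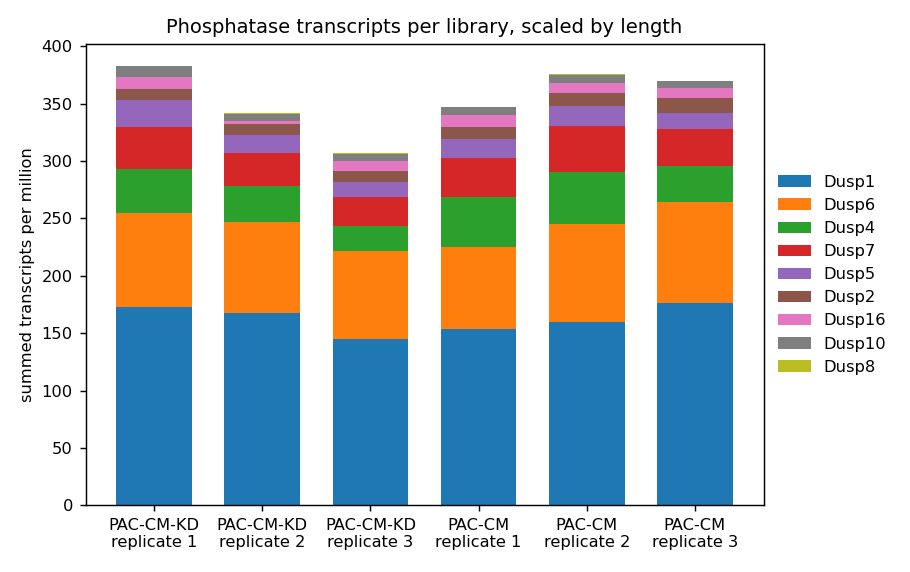
Summed TPM of the 9 genes in each library, stacked by gene in order of level from the bottom, with PAC-CM-KD libraries left of PAC-CM libraries. Dusp1 and Dusp6 together form 64.8% to 72.4% of each bar, and the sums run from 307 to 383.

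The DNA around the transcription start is shown for Dusp1, Dusp8 and Dusp5, because these windows hold letters known, in other genes, as elements that answer cyclic AMP or serum. The windows run from 250 bases before to 50 after the start, are from RefSeq (GRCm38.p6), and were at hand for 8 of the 9 genes. They read 5′ to 3′ on the strand of the gene, with capitals on matches, on either strand, to TGACGT, the core of the cyclic AMP response element, and to the CArG box that serum response factor binds.

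Dusp1 (chr17:26508423-26508722, minus strand): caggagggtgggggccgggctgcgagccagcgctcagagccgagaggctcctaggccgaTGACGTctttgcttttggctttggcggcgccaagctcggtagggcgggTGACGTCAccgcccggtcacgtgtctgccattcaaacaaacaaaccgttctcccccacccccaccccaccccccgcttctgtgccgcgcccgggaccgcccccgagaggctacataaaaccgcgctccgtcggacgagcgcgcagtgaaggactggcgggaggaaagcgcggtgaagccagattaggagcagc
Dusp8 (chr7:142095235-142095534, minus strand): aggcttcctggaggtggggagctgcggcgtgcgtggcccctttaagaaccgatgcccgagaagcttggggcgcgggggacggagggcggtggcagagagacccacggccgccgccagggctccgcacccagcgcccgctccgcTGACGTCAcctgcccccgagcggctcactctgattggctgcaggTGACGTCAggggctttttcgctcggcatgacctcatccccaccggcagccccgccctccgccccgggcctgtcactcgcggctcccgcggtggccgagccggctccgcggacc
Dusp5 (chr19:53528895-53529194, plus strand): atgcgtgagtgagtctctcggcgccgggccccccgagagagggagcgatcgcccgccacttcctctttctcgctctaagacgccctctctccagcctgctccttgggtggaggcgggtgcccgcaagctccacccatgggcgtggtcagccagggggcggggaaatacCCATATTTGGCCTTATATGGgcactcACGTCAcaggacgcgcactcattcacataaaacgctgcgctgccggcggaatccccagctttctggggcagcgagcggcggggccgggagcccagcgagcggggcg

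Dusp1, the most abundant of the 9, held 1 full cyclic AMP response element, TGACGTCA, and Dusp8, the least abundant, held 2. The full element was in 1.79% of 32851 RefSeq windows of this length, and the core TGACGT, which occurs on both strands of each full element, in 7.51%. Dusp5 held 2 CArG boxes side by side, which 1.63% of windows hold at least once, and 1 core TGACGT read on the other strand. The AP-1 site TGANTCA, found in 7.81% of windows, was in none of the 8 windows. The E-box CACGTG, found in 7.15%, was in those of Dusp1 and Dusp2. These are matches of letters, and binding was not measured.

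Dusp1 (ENSMUSG00000024190, chr17:26505590-26562128, GRCm38, minus strand), an immediate early gene whose product acts on p38, JNK and ERK, had 209, 203 and 177 CPM in PAC-CM-KD replicates 1 to 3, against 182, 189 and 209 CPM in the PAC-CM replicates. Both groups spanned nearly the same range. Its log2 fold change was 0.07 (SE 0.0827, edgeR adjusted p = 0.767), with a 95% interval from -0.12 to 0.25, or 0.918-fold to 1.19-fold. Counts of 7294 to 9222 per library stood behind these values. The promoter window shown above lies inside this gene model, which has 6 annotated transcripts, and other starts were not examined. Ergic1, on the other strand, shares 11 exon bases with Dusp1 and held 6379 to 8177 counts. Whether the counting used strand is not stated.

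Dusp2 (ENSMUSG00000027368, chr2:127336159-127338376, plus strand), a nuclear phosphatase first known from activated T cells and abundant in leukocytes, had 6.86, 6.90 and 6.66 CPM in PAC-CM-KD macrophages, against 7.55, 8.30 and 9.25 CPM in PAC-CM macrophages. Each PAC-CM-KD library lay below each PAC-CM library, as was the case for 15.7% of all tested genes. The log2 fold change of -0.25 (SE 0.113, interval -0.51 to 0.01) missed the threshold at an edgeR adjusted p of 0.344. Over the alternatives the estimate stayed between -0.32 and -0.17, with an adjusted p between 0.258 and 0.589.

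Dusp4 (ENSMUSG00000031530, chr8:34807297-34819894, plus strand), which acts on ERK and JNK in the nucleus, had 38.5, 31.4 and 21.8 CPM in PAC-CM-KD macrophages, against 42.9, 43.7 and 31.1 CPM in PAC-CM macrophages. The groups overlapped, PAC-CM-KD replicate 2 lying just above PAC-CM replicate 3. Its estimate was -0.32 on the log2 scale (SE 0.233, interval -0.89 to 0.25, edgeR adjusted p = 0.592). It was -0.52 without PAC-CM-KD replicate 1 and -0.13 without PAC-CM-KD replicate 3, and passed in neither case (adjusted p = 0.335 and 0.825, with 0.178 to 0.825 over the alternatives).

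Dusp5 (ENSMUSG00000034765, chr19:53529109-53542431, plus strand), a nuclear phosphatase specific for ERK, had 21.2, 14.01 and 11.8 CPM in PAC-CM-KD macrophages, against 14.6, 15.1 and 11.95 CPM in PAC-CM macrophages. PAC-CM-KD replicate 1 was the highest library, PAC-CM-KD replicate 2 lay inside the PAC-CM range, and replicate 3 just below it. The log2 fold change of 0.22 (SE 0.217, edgeR adjusted p = 0.695) turned to -0.06 without PAC-CM-KD replicate 1 (adjusted p = 0.870). An antisense model, AC137853.2, shares 547 exon bases with Dusp5 and held at most 10 counts in any library. Whether the counting used strand is not stated, and reads of the pair cannot be told apart.

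Dusp6 (ENSMUSG00000019960, chr10:99263231-99267489, plus strand), a cytoplasmic ERK phosphatase whose transcript is widely used as a readout of ERK activity, had 93.1, 90.3 and 89.1 CPM in PAC-CM-KD macrophages, against 79.3, 95.9 and 98.2 CPM in PAC-CM macrophages. The PAC-CM-KD values lay close together inside the PAC-CM range. On the log2 scale the fold change was 0.04 (SE 0.0886, edgeR adjusted p = 0.887, interval -0.16 to 0.24). Its sign was not settled: it was -0.05 without PAC-CM replicate 1 and -0.0047 with library totals alone as the scaling.

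Dusp7 (ENSMUSG00000053716, chr9:106368632-106375724, plus strand), the other cytoplasmic ERK phosphatase of the set, had 44.8, 34.9 and 31.6 CPM in PAC-CM-KD macrophages, against 40.5, 48.9 and 39.2 CPM in PAC-CM macrophages. Here too PAC-CM-KD replicate 1 reached into the PAC-CM range and the other two lay below it. The estimate was -0.16 (log2, SE 0.143, interval -0.50 to 0.17, edgeR adjusted p = 0.650). Without PAC-CM-KD replicate 1 it was -0.32 (adjusted p = 0.215), and over the alternatives the adjusted p lay between 0.215 and 0.935.

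Dusp10 (ENSMUSG00000039384, chr1:184013302-184075636, plus strand), which prefers p38 and JNK, had 10.8, 6.66 and 7.44 CPM in PAC-CM-KD macrophages, against 7.53, 7.33 and 6.53 CPM in PAC-CM macrophages. PAC-CM-KD replicate 1 stood above the other 5 libraries, which lay close together. The log2 fold change was 0.26 (SE 0.180, interval -0.15 to 0.67, edgeR adjusted p = 0.550), and 0.03 without that library (adjusted p = 0.940, with 0.436 to 0.940 over the alternatives).

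Dusp16 (ENSMUSG00000030203, chr6:134715468-134792625, minus strand), a JNK phosphatase, had 1267, 383 and 1060 counts in PAC-CM-KD replicates 1 to 3, against 1190, 1154 and 1114 counts in the PAC-CM replicates. As CPM these were 29.2, 9.08 and 25.8 in PAC-CM-KD, against 27.6, 24.3 and 25.3 in PAC-CM macrophages. A single library, PAC-CM-KD replicate 2, was low, and the other 5 lay between 24.3 and 29.2 CPM. The log2 fold change of -0.22 (SE 0.442, interval -1.36 to 0.91, edgeR adjusted p = 0.871) became 0.14 without that library (adjusted p = 0.607). Among 9744 genes with a highest count of at least 200, 16 had their lowest CPM in PAC-CM-KD replicate 2 at 1/2 or less of every other library, and the other libraries had 14 to 23 such genes each. Dusp16 was the only one of the 9 phosphatase genes found in this way in any library. An antisense model inside the gene, Gm36328, shares no exon base with it and held at most 4 counts. Why the library was low was not tested.

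Dusp8 (ENSMUSG00000037887, chr7:142079490-142095843, minus strand), a JNK and p38 phosphatase best known from brain and heart, had 21, 16 and 8 counts in PAC-CM-KD macrophages, against 45, 60 and 20 counts in PAC-CM macrophages. With exact 95% Poisson intervals, which cover counting error only, these were 0.484 (0.299 to 0.739), 0.379 (0.217 to 0.616) and 0.194 (0.0840 to 0.383) CPM in PAC-CM-KD, against 1.05 (0.762 to 1.399), 1.26 (0.965 to 1.63) and 0.453 (0.277 to 0.700) CPM in PAC-CM macrophages. PAC-CM replicate 3 lay below PAC-CM-KD replicate 1, and its counting interval overlapped those of all 3 PAC-CM-KD libraries. The other PAC-CM libraries had intervals above all of these, by counting error alone. Dusp8 had the lowest unadjusted p of the 9 (0.0223) and a log2 fold change of -1.33 (SE 0.478, interval -2.43 to -0.24), which missed the threshold at an edgeR adjusted p of 0.247. The estimate stayed between -1.65 and -1.03 over the alternatives, with an adjusted p between 0.173 and 0.554. The gene drops out under a stricter filter, which asks for over 1 CPM in 3 libraries. As for Dusp1, the promoter window of Dusp8 lies inside its gene model, which has 2 annotated transcripts. Other starts were not examined.

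**Figure D3:**
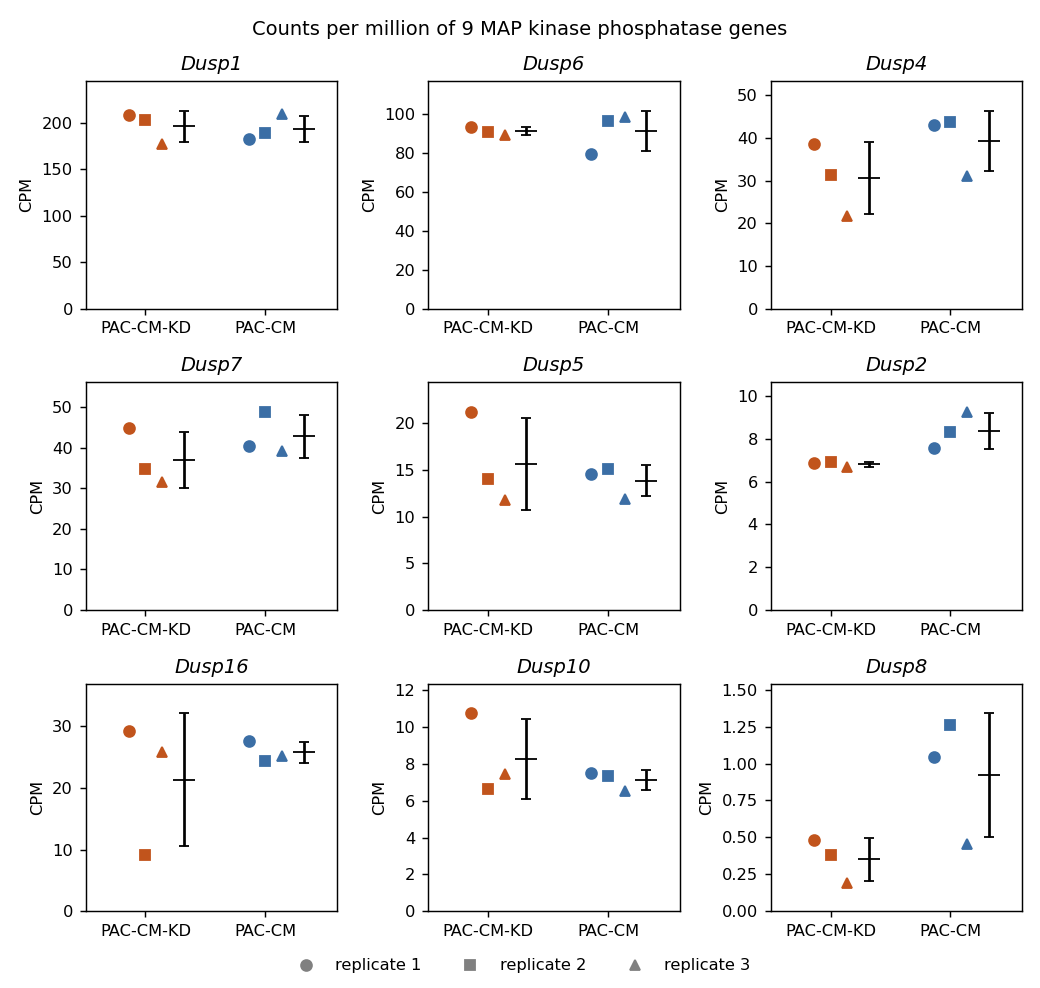
CPM of each phosphatase gene (linear axes from 0, one scale per gene) in PAC-CM-KD and PAC-CM libraries. Coloured symbols mark replicates 1 to 3, and the black bar shows the mean ± SD of 3 libraries. The groups are separate for Dusp2 alone. PAC-CM-KD replicate 1 is the high point for Dusp5 (21.2) and Dusp10 (10.8), and PAC-CM-KD replicate 2 the low point for Dusp16 (9.08).

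Within the PAC-CM-KD group, replicate 1 was the highest library for 8 of the 9 genes, all but Dusp2, and for 36.1% of all tested genes. The lead was small for Dusp1 (209 CPM, against 203 CPM in PAC-CM-KD replicate 2) and for Dusp6 (93.1 against 90.3 CPM). Some other lists of the pathway, which share genes in part, did likewise. Highest there were 13 of 18 tested immediate early genes, 9 of 11 ERK readout genes, 8 of 9 Ras-ERK inhibitors and 10 of 12 p38- and JNK-dependent mediators. Shares were lower in the remaining lists. They were 5 of 11 other dual-specificity phosphatases, 4 of 8 other phosphatases of MAP kinases, 4 of 7 MAP kinase kinases and 6 of 10 MAP kinase-activated kinases. For CREB targets it was 5 of 9, for glucocorticoid receptor targets 5 of 8, for Raf and Tpl2 kinases 1 of 7 and for MAP kinases 1 of 8. Nothing particular to the phosphatases can be read from this count. In the PAC-CM group the highest library was replicate 1 for 2 genes, replicate 2 for 4 and replicate 3 for 3. PAC-CM-KD replicate 1 also stood apart in the whole transcriptome, at -39.3 on the second principal component of log2 CPM, where the other libraries lay between -6.13 and 19.7. The coefficient of variation was larger in the PAC-CM-KD group for 6 of the 9, and for 58.7% of all tested genes. From the lowest to the highest of the 6 libraries, CPM differed 1.18-fold for Dusp1 and 1.24-fold for Dusp6, the most evenly transcribed members, and 6.499-fold for Dusp8.

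Genes that followed the 2 most abundant members across libraries were sought among 8680 other genes averaging 5 CPM or more. By Pearson's r of log2 CPM over the 6 libraries, Parp12 (r = 0.977, Spearman's rho = 0.943), Dnajc7 (r = 0.965) and Pex16 (r = 0.963) were closest to Dusp1. Tbp (r = 0.993, rho = 1), Arpc2 (r = 0.982) and Siah1a (r = 0.981) were closest to Dusp6. Leaving out the 2 libraries farthest from the median of the phosphatase, r was 0.975 for Parp12 and 0.970 for Tbp, but 0.692 for Arpc2. These r are the highest of many, over 6 libraries that differ in depth and treatment, and are given as a description without a p.

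The rest of the pathway was read from the same test, over lists of genes named from general knowledge. Earlier results of these data were known when the lists were chosen, so their counts and shares are a description only. Of 11 tested other dual-specificity phosphatases, a varied group, 0 rose and 0 fell. The median log2 fold change was -0.03. Dusp11, an RNA phosphatase, averaged 82.1 ± 1.72 CPM in PAC-CM-KD and 82.2 ± 3.63 CPM in PAC-CM macrophages. Dusp3, a small phosphatase of ERK and JNK, averaged 62.0 ± 2.86 CPM in PAC-CM-KD and 61.8 ± 2.24 CPM in PAC-CM macrophages (edgeR adjusted p = 0.814 and 0.789). At an unadjusted p under 0.05 there were 2 of the 11, Dusp28 (log2 fold change -0.37, adjusted p = 0.129) and Dusp23 (-0.43, adjusted p = 0.221), both named after their values were seen.

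Of the MAP kinases and the kinases above them none passed by edgeR, with 0 called of 8 tested MAP kinases (median 0.04), 0 of 7 MAP kinase kinases (median 0.02) and 0 of 7 Raf and Tpl2 kinases with their partners (median -0.09). At an unadjusted p under 0.05 edgeR had 0, 1 and 0 of them. Mapk3, which encodes ERK1, averaged 249 ± 7.09 CPM in PAC-CM-KD and 246 ± 5.87 CPM in PAC-CM macrophages. Map2k1, the ERK kinase MEK1, averaged 461 ± 17.0 CPM in PAC-CM-KD and 518 ± 9.87 CPM in PAC-CM macrophages (log2 fold change -0.12, edgeR adjusted p = 0.371), and Map2k4 averaged 92.8 ± 4.74 CPM in PAC-CM-KD and 91.9 ± 4.80 CPM in PAC-CM macrophages. Nfkb1, whose product p105 holds the kinase Tpl2, had a log2 fold change of -0.27 (edgeR adjusted p = 0.524). The symbol Map2k7 stands on 2 rows of the table, one of which held 237 counts in PAC-CM replicate 1 and 0 elsewhere. Its main row, named after its values were seen, had a log2 fold change of 0.80 with an adjusted p of 0.258 by edgeR and 0.0211 by DESeq2, and 0.0211 to 0.465 over the alternatives. With the counts of the symbol split over rows, these values are uncertain.

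Downstream of the MAP kinases, 0 of 10 tested MAP kinase-activated protein kinases were called (median -0.07, with 2 at an unadjusted p under 0.05 by edgeR). Mapkapk2, the p38-activated kinase MK2 that stabilises cytokine mRNAs, came closest. It had 148, 142 and 122 CPM in PAC-CM-KD macrophages, against 217, 213 and 184 CPM in PAC-CM macrophages, a log2 fold change of -0.53 (SE 0.0930, edgeR adjusted p = 0.0601). It passed with DESeq2 (adjusted p = 0.000105), library totals, no filter, the replicate block or without PAC-CM-KD replicate 1, and over the alternatives its adjusted p lay between 0.000105 and 0.229. Mknk2, a kinase of the translation factor eIF4E, averaged 120 ± 6.48 CPM in PAC-CM-KD and 123 ± 7.32 CPM in PAC-CM macrophages.

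Among other brakes on the pathway there was no call. Of 8 tested tyrosine and serine/threonine phosphatases that act on MAP kinases 0 were called (median -0.06), and 0 had an unadjusted p under 0.05 by edgeR. The protein phosphatase 2A genes Ppp2ca and Ppp2r1a, the most abundant of that list, had log2 fold changes of -0.02 and 0.05 (adjusted p = 0.928 and 0.727). Of 9 tested Sprouty, Spred and related inhibitors of Ras-ERK signalling 0 were called (median 0.01), with 1 at an unadjusted p under 0.05, Spred1. It averaged 170 ± 16.4 CPM in PAC-CM-KD and 200 ± 5.44 CPM in PAC-CM macrophages (log2 fold change -0.18, edgeR adjusted p = 0.323). Pea15a, which holds ERK in the cytoplasm, had 0.15 (adjusted p = 0.354).

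The listed ERK readout and immediate early genes did not pass either. Among 11 tested ERK readout genes 0 were called (median -0.10) and among 18 immediate early genes 0 (median -0.08). At an unadjusted p under 0.05 edgeR had 3 and 2 of them. Egr1 is in both lists and was above 0 (log2 fold change 1.08, edgeR adjusted p = 0.221). It had 41, 55 and 50 counts in PAC-CM-KD, against 13, 35 and 28 counts in PAC-CM macrophages, without overlap in CPM. The others, Epha4 and Spred1 of the first list and Ier2 of the second, were below 0. Egr1, Epha4 and Ier2 were named after their values were seen. Of the immediate early genes 15 estimates lay below 0 and 3 above, where 51.1% of all tested genes lay below. Atf3 had a log2 fold change of -0.08 and Klf6 of -0.06 (adjusted p = 0.582 and 0.673). Emp1, the most abundant ERK readout gene, varied within groups, with 541, 211 and 439 CPM in PAC-CM-KD, against 373, 411 and 155 CPM in PAC-CM macrophages. Of 8 tested glucocorticoid receptor targets, a class to which Dusp1 belongs, 0 were called by edgeR, with 7 estimates below 0 and a median of -0.16. An unadjusted p under 0.05 was found for 3 of the 8, against 14.9% of all tested genes, and all 3 estimates (Fkbp5, Sgk1 and Ddit4, the first and last named after their values were seen) were below 0. Sgk1 averaged 409 ± 60.0 CPM in PAC-CM-KD and 538 ± 42.7 CPM in PAC-CM macrophages (log2 fold change -0.35, edgeR adjusted p = 0.184) and Tsc22d3 had -0.22 (adjusted p = 0.476).

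Of the other listed genes 2 were called, and both fell, where edgeR called 0.511% of all 13901 tested genes. Pde4b, a cyclic AMP phosphodiesterase induced through CREB, was the single call among 9 tested CREB and cyclic AMP targets (median -0.03). It had 18.7, 17.5 and 16.9 CPM in PAC-CM-KD macrophages, against 25.5, 29.8 and 27.7 CPM in PAC-CM macrophages, with no overlap and a log2 fold change of -0.60 (SE 0.0883, edgeR adjusted p = 0.0349). Its call was lost in 8 of 16 alternatives, among them limma-voom, the replicate block (adjusted p = 0.0748) and leaving out any one library other than PAC-CM-KD replicate 1 (0.0811 to 0.144). At an unadjusted p under 0.05 there were 2 of the 9 CREB and cyclic AMP targets. The other, Thbs1, named after its values were seen, was above 0 (log2 fold change 0.66, edgeR adjusted p = 0.221). Il1b, the cytokine interleukin-1 beta, was the single call among 12 tested p38- and JNK-dependent mediators (median 0.16). It had 1057, 1057 and 935 CPM in PAC-CM-KD macrophages, against 1548, 1554 and 1652 CPM in PAC-CM macrophages, a log2 fold change of -0.60 (SE 0.0683, edgeR adjusted p = 0.0152). Without PAC-CM replicate 1, 2 or 3 or PAC-CM-KD replicate 2 its adjusted p was 0.0823, 0.0627, 0.0701 and 0.0681. In that list 6 of the 12 had an unadjusted p under 0.05, against 14.9% of all tested genes, and they went both ways. Estimates were below 0 for 4 (Il1b, Nos2, Tnf and Il10) and above 0 for 2, Ccl3 at 0.56 and Ccl4 at 0.55 (edgeR adjusted p = 0.276 and 0.242), and all but Il1b were named after their values were seen.

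**Figure D4:**
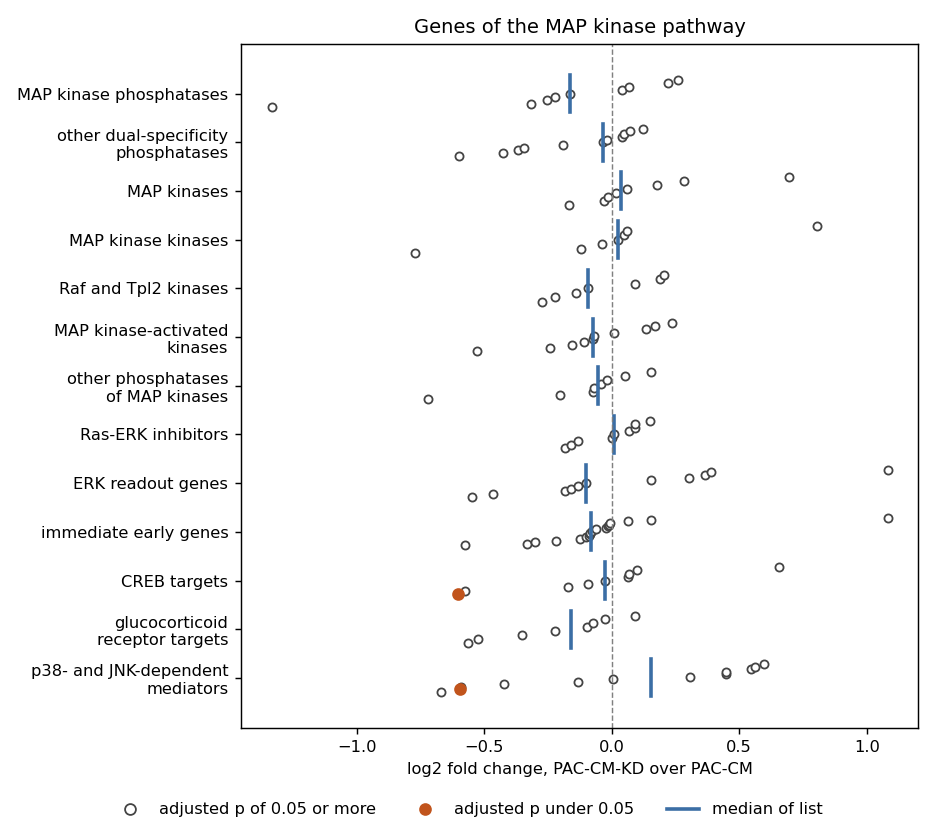
Log2 fold change, PAC-CM-KD over PAC-CM, of every tested gene of the 9 phosphatases (top) and of 12 lists of the MAP kinase pathway. Filled points have an edgeR adjusted p under 0.05 (Pde4b and Il1b), open points do not, and blue bars mark medians, which lie between -0.16 and 0.16.

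Library totals ran from 41125059 to 43434292 counts in PAC-CM-KD and from 43054066 to 47461702 in PAC-CM libraries, and 3 counts, which is as much as a count of 0 allows for, correspond to 0.0632 to 0.0729 CPM. Macrophage markers were abundant, their 8 symbols summing to between 22392 and 25275 CPM in PAC-CM-KD and between 20503 and 22617 CPM in PAC-CM libraries. The 10 pancreatic acinar markers summed to 5.40 to 8.06 CPM in PAC-CM-KD and 7.005 to 8.03 CPM in PAC-CM libraries, with none at 0 in all libraries. Neutrophil markers summed to 33.2 to 42.8 CPM in PAC-CM-KD and 30.9 to 39.9 CPM in PAC-CM libraries (Elane and Retnlg at 0 in all). Nearly all of this was S100a8, at 28.5 to 41.8 CPM, and each other neutrophil marker was at 1.75 CPM or less. Dendritic cell markers summed to 8.74 CPM or less, nearly all of it Xcr1 (5.42 to 8.47 CPM), with each other one at 0.325 CPM or less. Those of lymphocytes, fibroblasts and mast cells or basophils summed to 2.58 CPM or less. No marker was called in either direction, and the part of these cells in the phosphatase values was not tested. Fewer cells of a type and less RNA per cell cannot be told apart in such bulk samples.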

How the data were processed

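RNA of 6 samples was measured by RNA-seq, 3 per group. The authors deposited whole-number counts per Ensembl gene for 55335 genes, 1 column per library, unscaled. The build was GRCm38, per the submitters' processing notes, which also list StringTie 1.3.1c, STAR, DESeq2 1.16.1, bcl2fastq 2.20 and FastQC 0.11.2, without their roles. The tool that made the counts and its use of strand are not given in the sources used here. The value 3 stood in 6202 cells and the value 2 in 5128, so some counts may be estimates rounded before deposit.

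Counts were used as deposited, with no further columns. Groups were compared in R 4.3.3 by edgeR 4.0.16 with filterByExpr, TMM scaling and robust quasi-likelihood fits on the group alone, two-sided, with Benjamini-Hochberg adjustment over 13901 genes and a threshold of 0.05. The SE is the size of the log2 fold change over the square root of F, and intervals use the moderated degrees of freedom. TPM used exon lengths of GENCODE M21 (same build), for the 55154 of the identifiers it holds. The edgeR script was tested on simulated data. Library totals ran from 41125059 to 47461702 counts. The floors in CPM and the Poisson intervals of Dusp8 cover counting error only, while the edgeR intervals also include the scatter between libraries.

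Alternatives were DESeq2 1.42.0, voom of limma 3.58.1, other scalings and filters, non-robust fits, no mitochondrial or 20 most abundant genes, the replicate number as a block, each library left out, and other lengths or length scaling. The members and lists were chosen with earlier results of these data known. Named were the 9 members, called genes of each list (or its 2 most abundant if none was called), and the 3 genes most like each of the 2 most abundant members. Other names are said to be chosen after their values were seen. Some genes that this rule names are not reported here.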

Additional observations from a re-analysis of the deposited data

How the results depend on the processing

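No phosphatase gene was called in any of the 16 alternatives. Of 143 alternative estimates of the 9 genes, 139 kept their sign. Dusp6 turned to -0.0047 with library totals. With a library left out, Dusp6 ran from -0.0515 (without PAC-CM replicate 1) to 0.0998, Dusp5 from -0.0593 (without PAC-CM-KD replicate 1) to 0.385, and Dusp16 from -0.51 to 0.14 (without PAC-CM-KD replicate 2). The cause was not tested. The 71 calls over all genes became 419 with DESeq2, 39 with limma-voom, 42 with the replicate block, 36 with non-robust estimates, and 13 to 98 with a library left out (13, 26 and 14 without PAC-CM replicates 1, 2 and 3, and 98, 20 and 37 without PAC-CM-KD replicates 1, 2 and 3). The 2 calls among listed genes became 11 with DESeq2, which called 3.15% of all genes it tested. They became 1 with limma-voom or non-robust estimates, 4 with library totals or without a filter, and 0 to 3 with a library left out. Dusp11 was at -0.0028 with library totals. Mknk2 was at -0.0094 with upper quartile scaling, -0.0359 with library totals and between -0.0371 and 0.0603 with a library left out. Ppp2ca ran from -0.0383 to 0.0121 with a library left out. As CPM over length in kilobases, without further scaling, the summed pool was 126 in PAC-CM-KD and 130 in PAC-CM macrophages, a change of unit. With a library left out the sum in TPM was 324 to 362 in PAC-CM-KD and 359 to 373 in PAC-CM macrophages.

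Across all genes, deviations of same-numbered replicates from their group means correlated at 0.00874, -0.101 and 0.135. Those of differently numbered replicates ran from -0.173 to 0.164. With 3 libraries a group, such values cannot settle whether the numbers pair the samples, and the labels do not state it. The replicate block moved the log2 fold change of Dusp16 to -0.37 and called none of the 9. Under the filter on 1 CPM Dusp8 has no value. Depth limits Dusp8 most, which rests on 8 to 60 counts a library.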
